A study of Homo sapiens with 12 samples.

Results

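The genes of 6 solute carrier (SLC) families that move amino acids across membranes were examined after knockdown of NONO or PKM2 in MDA-MB-231 cells. Members were all genes named SLC1A, SLC3A, SLC7A, SLC36A, SLC38A or SLC43A followed by a number in both deposited tables. This gave 40 genes among 60558 shared identifiers, namely 7 of the SLC1 family, 2 of SLC3, 13 of SLC7, 4 of SLC36, 11 of SLC38 and 3 of SLC43. The rule used gene names and no measured value. MDA-MB-231 is an established human cell line of triple negative breast cancer. The 12 RNA-seq libraries formed 2 experiments of 4 groups with 3 libraries each, namely negative control (NC) and NONO_KD cells in the first, and a separate NC group and PKM2_KD cells in the second. The labels give NC cells as WT and the other cells as NONO knockdown or PKM2 knockdown, and the design text states that siRNA was used. Neither the time after transfection nor the siRNA given to each library was stated in the sources used here, and nothing says whether the 3 libraries of a group came from separate cultures, so P values measure only the spread between these libraries.

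Amino acid transporters divide the work between them. SLC1 members carry glutamate or small neutral amino acids with sodium. Many SLC38 members are sodium-coupled neutral amino acid transporters, and several of them carry glutamine. Some SLC36 members, such as SLC36A1, carry small amino acids with protons. Most SLC7 light chains reach the membrane only as partners of the glycoprotein SLC3A2 (CD98 heavy chain) and exchange one amino acid for another, whereas the cationic transporters SLC7A1 and SLC7A2 work without it. Tumour cells depend on SLC1A5 and SLC38A1 or SLC38A2 for glutamine, on SLC7A5 for leucine and on SLC7A11 for the cystine from which glutathione is made.

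The targeted genes were low in every library of their knockdown group. NONO was at 358 to 391 CPM (counts scaled to the library size, TMM-normalized) in its NC libraries and at 61.8 to 64.3 CPM in NONO_KD. PKM, the gene that encodes PKM1 and PKM2, was at 2211 to 2324 CPM in its NC libraries and at 218 to 234 CPM in PKM2_KD. The estimated counts summed to between 19861762 and 28455268 per library, the PKM2 experiment being the deeper one. Of the receptors that define the tumour type, ESR1 and PGR were at most 0.436 and 0.375 CPM in any library and ERBB2 was between 36.3 and 80.3 CPM. VIM, CD44 and EGFR, which mark this mesenchymal line, were abundant, and the epithelial marker CDH1 reached at most 0.0860 CPM and the leukocyte marker PTPRC at most 0.207 CPM in any library. The other epithelial marker looked up, EPCAM, was at 1.38 to 3.71 CPM, and the endothelial marker PECAM1 was at 0.774 to 3.04 CPM. Over all genes, NC library 1 deviated most from its group in the NONO experiment and PKM2_KD library 3 in the PKM2 experiment (SD of log2 CPM deviations 0.239 and 0.249).

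Of the 40 transporter genes, 23 had enough counts to be tested in both experiments and 17 did not. The latter had at most 12 estimated counts and 1.32 TPM (transcripts scaled to the library, a unit that accounts for gene length) in any library, both in SLC38A5, and 6 of them had no count in any library. These 6 were SLC1A6, SLC7A3, SLC7A13, SLC36A2, SLC38A3 and SLC38A11. The other untested members were SLC1A2, SLC1A7, SLC3A1, SLC7A4, SLC7A8, SLC7A9, SLC7A10, SLC7A14, SLC36A3, SLC38A5 and SLC38A8. SLC7A7 passed the filter at its edge, with 1 or 2 of 3 libraries of each group above it, whereas the other 22 tested members were above it in all 12 libraries.

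Per length, the most abundant transporters in NC cells were the same 7 in both experiments and stood in the same order. In the PKM2 experiment the NC libraries held 224 ± 6.47 TPM of SLC43A3 (SD, n = 3 here and below). SLC3A2 followed with 174 ± 21.7, SLC1A5 with 154 ± 9.21 and SLC38A2 with 120 ± 16.5 TPM. SLC38A1 stood at 95.9 ± 3.16, SLC7A5 at 78.9 ± 3.43 and SLC7A1 at 70.3 ± 3.28 TPM. The neighbours SLC3A2 and SLC1A5 lay within 1 SD of each other in that group. SLC7A11 came eighth with 36.8 ± 3.12 TPM, and the glutamate carrier SLC1A1 and the neutral amino acid carrier SLC1A4 were near the bottom, at 2.06 ± 0.0577 and 1.93 ± 0.134 TPM. The 40 members together made up 1117 to 1239 TPM in these libraries. After PKM2 knockdown the sum was 1050 to 1257 TPM, so that the groups overlapped (exact permutation test, two-sided, P = 1.00), but the order was another one. SLC3A2 was first with 289 ± 13.0 TPM, and SLC43A3 had gone from 19.4 ± 0.882% to 8.02 ± 0.35% of the members' sum. After NONO knockdown the sum was 1111 to 1122 TPM against 1147 to 1241 TPM in NC, and SLC43A3 remained first with 203 ± 7.75 TPM.

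**Figure D1:**
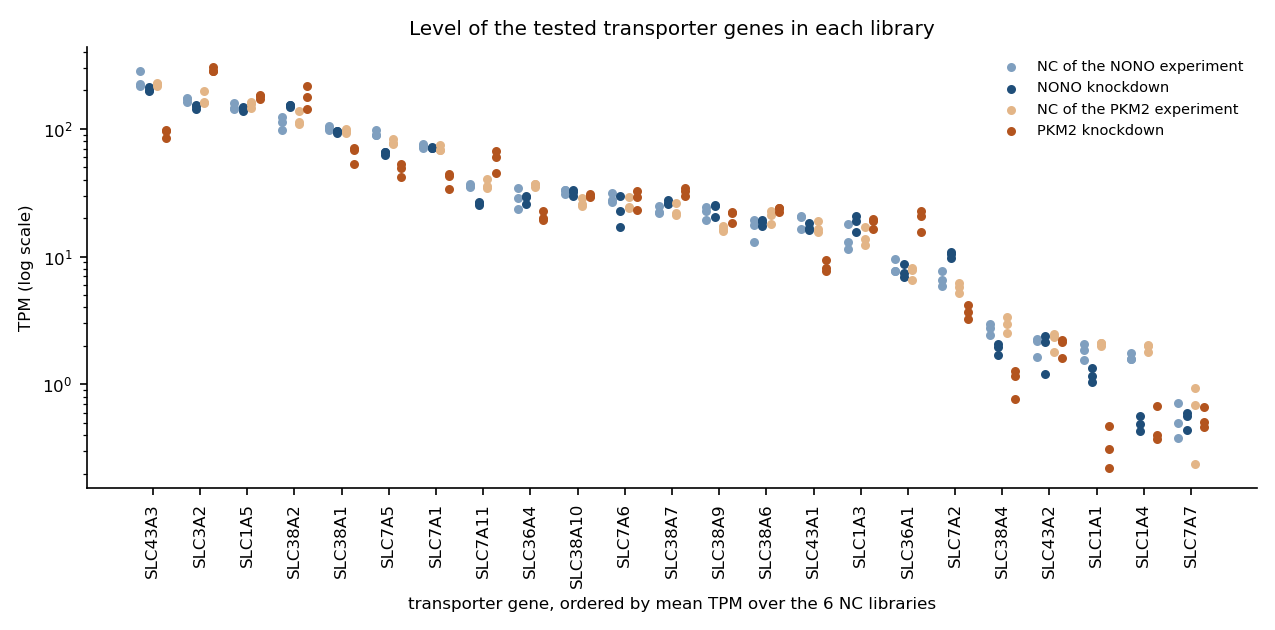
TPM (log scale) of the 23 tested transporter genes in each of the 12 libraries, ordered by the mean over the NC libraries, 1 point per library. SLC43A3 leads in both NC groups, and SLC3A2 leads after PKM2 knockdown at 289 TPM on average.

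The first question was how many transporters changed in each experiment. After NONO knockdown 4 of the 23 tested members rose (17.4%) and 8 fell (34.8%), at an adjusted P below 0.05 in edgeR's quasi-likelihood test over all 14832 genes tested. Of all those genes, 16.2% rose and 17.2% fell, 33.4% in all. After PKM2 knockdown 10 members rose and 10 fell (43.5% each), where 33.6% of all 15524 genes tested rose and 34.7% fell, 68.4% in all. The median log2 fold change of the 23 members was -0.09 after NONO knockdown and -0.06 after PKM2 knockdown, beside -0.01 over all genes in both. At the study's cutoffs (fold change above 2, unadjusted P below 0.05), no transporter rose and 1 fell after NONO knockdown, where 0.789% and 2.16% of all genes did. After PKM2 knockdown 1 rose and 5 fell at these cutoffs, beside 7.05% and 13.8% of all genes. Only SLC7A7 was called in neither experiment.

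Both knockdowns called 10 of the 23 members (43.5%), as against 27.2% of the 14525 genes tested in both. Among these, SLC1A3, SLC38A2 and SLC38A7 rose in both experiments, and SLC1A1, SLC1A4, SLC7A5, SLC36A4 and SLC38A4 fell in both. SLC7A2 and SLC7A11 changed in opposite directions. The share with the same direction was 80% of the members called in both and 70.8% of all 3956 genes called in both. A further 10 members were called after PKM2 knockdown alone and SLC7A6 and SLC43A2 after NONO knockdown alone (SLC7A6 was called after both when either of 2 libraries of the PKM2 experiment was left out), which by itself does not show a difference between the knockdowns. The difference itself was tested as an interaction over the 12 libraries. By that test the change was more positive after PKM2 knockdown for 8 members and more negative for another 8, where 25.7% and 27.4% of the 15995 genes tested differed in those directions, 53.1% in all.

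**Figure D2:**
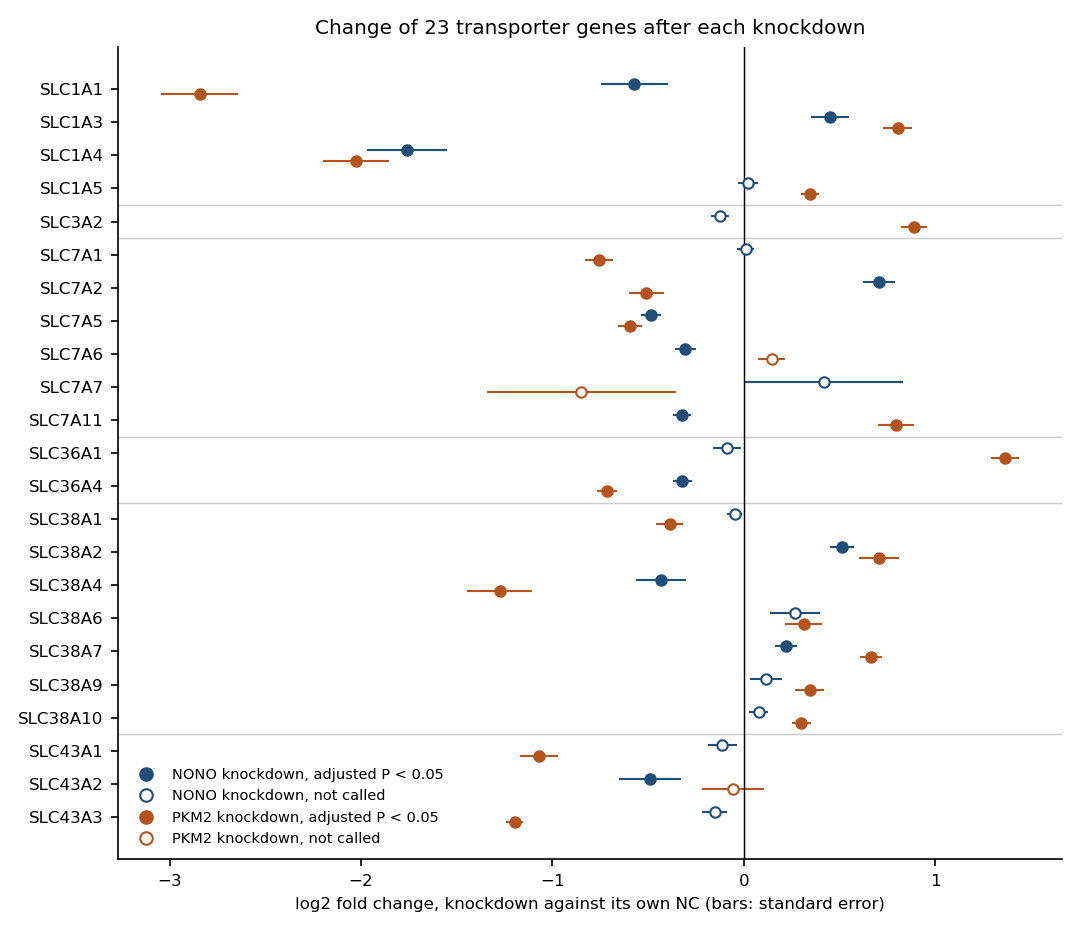
Log2 fold change of 23 transporter genes after NONO knockdown (blue) and PKM2 knockdown (brown) against the NC group of the same experiment, with standard errors. Filled points have an adjusted P below 0.05, and lines separate the SLC families. The points of SLC1A4, SLC7A5 and SLC38A2 lie close together, whereas those of SLC7A2 and SLC7A11 lie on opposite sides of 0.

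Since several transporters are known targets of the amino acid response, in which ATF4 acts on composite sites with the core TGATGNAA, the members' promoters were searched for this word on both strands. The search was chosen after the fold changes were known. RefSeq promoters of GRCh38.p14 (250 bases before to 50 after each start) were at hand for 20 of the 23 tested members, in 38 windows. SLC7A2, SLC7A11 and SLC43A3 had no entry. The word lay in 6 of these 38 windows (15.8%), each from another gene, and in 3.62% of all 35116 windows. The 6 genes were SLC1A3, SLC1A4, SLC1A5, SLC3A2, SLC7A1 and SLC38A1. After PKM2 knockdown SLC1A3, SLC1A5 and SLC3A2 rose, and SLC1A4, SLC7A1 and SLC38A1 fell. After NONO knockdown SLC1A3 rose, SLC1A4 fell and the other 4 were not called. A second word, CACGTG, was part of the same search. It also lay in 6 of the 38 windows (15.8%), and in 7.26% of all windows. Its 6 genes were SLC1A5, SLC7A5, SLC7A7, SLC36A1, SLC38A7 and SLC43A1. After PKM2 knockdown SLC1A5, SLC36A1 and SLC38A7 rose, SLC7A5 and SLC43A1 fell and SLC7A7 was not called. After NONO knockdown SLC38A7 rose, SLC7A5 fell and the rest were not called. The stretches around TGATGNAA (capitals, on either strand) are shown for a pair of genes that fell after PKM2 knockdown and a pair that rose, because the same word stood near genes that moved in opposite directions. They are written 5′ to 3′ on the gene's strand.
SLC1A4 (chr2:64989346-64989428, plus strand): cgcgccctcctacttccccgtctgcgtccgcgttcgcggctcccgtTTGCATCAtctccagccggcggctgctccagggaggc
SLC7A1 (chr13:29595659-29595727, minus strand): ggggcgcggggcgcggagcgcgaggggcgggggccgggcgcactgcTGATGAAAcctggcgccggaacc
SLC3A2 (chr11:62881725-62881748, plus strand): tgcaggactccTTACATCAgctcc
SLC1A5 (chr19:46784858-46784957, minus strand): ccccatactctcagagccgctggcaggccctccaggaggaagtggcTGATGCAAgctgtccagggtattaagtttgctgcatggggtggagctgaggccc
In SLC1A4 and SLC3A2 the word reads on the opposite strand. It began 7 bases before the start in SLC1A4 and 97 bases before it in SLC1A5, and at base 8 and base 38 from the start in SLC7A1 and SLC3A2. The start is that of the gene in GENCODE 29 for SLC7A1, whereas SLC1A4, SLC3A2 and SLC1A5 were matched at RefSeq starts that lie inside the gene's span. A match of letters is not evidence that a factor binds there.

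In the SLC1 family, SLC1A4 (ASCT1, a carrier of alanine, serine and cysteine) fell in both experiments to about the same level. SLC1A4 (ENSG00000115902) lies on chromosome 2 of GRCh38 from 64988477 to 65023865 in GENCODE 29, on the plus strand. Its NC libraries of the NONO experiment held 5.22, 5.20 and 4.86 CPM and the NONO_KD libraries 1.89, 1.47 and 1.12 CPM. All NONO_KD libraries were below all NC libraries, with a log2 fold change of -1.76 (SE 0.21, edgeR adjusted P = 9.34e-05). In the PKM2 experiment the values were 5.19, 5.28 and 5.40 CPM in NC and 1.20, 1.33 and 1.35 CPM after knockdown, with a log2 fold change of -2.03 (SE 0.17, edgeR adjusted P = 7.32e-07). The change differed between the knockdowns by -0.28 (SE 0.27, edgeR adjusted P = 0.405), which was not detectable as a difference. SLC1A4 was the single transporter that fell by the study's cutoffs after NONO knockdown.

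SLC1A1 (EAAT3, a carrier of glutamate and of cysteine) had the lowest log2 fold change of all 23 members after PKM2 knockdown. Its NC libraries held 4.95, 5.08 and 5.19 CPM and the PKM2_KD libraries 0.663, 0.817 and 0.634 CPM. PKM2_KD cells thus held 0.139 times the NC level (log2 fold change -2.84, SE 0.20, edgeR adjusted P = 1.56e-07). In the NONO experiment it was at 4.12, 5.34 and 4.81 CPM in NC and at 3.64, 3.15 and 2.80 CPM after knockdown. These groups did not overlap either, and the log2 fold change was -0.57 (SE 0.18, edgeR adjusted P = 0.0268). That call was lost with DESeq2 (adjusted P = 0.0783) and when any of 4 libraries was left out, whereas the call after PKM2 knockdown was kept under every alternative with a test. The glial glutamate carrier SLC1A3 (EAAT1) rose in both experiments. It went from 17.5, 14.6 and 13.9 CPM to 21.3, 19.6 and 21.8 CPM after NONO knockdown, and from 15.5, 15.4 and 14.2 CPM to 27.1, 26.5 and 24.9 CPM after PKM2 knockdown. No library of either knockdown fell within its NC range. The log2 fold changes were 0.45 (SE 0.10, edgeR adjusted P = 0.00507) and 0.80 (SE 0.07, edgeR adjusted P = 1.63e-06). On the log2(TPM + 1) scale the NONO call was lost (0.37, limma adjusted P = 0.182, and 0.179 and 0.348 on the other TPM scales), and the change after PKM2 knockdown was smaller, 0.34, and was called by limma only with a filter on low TPM.

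The main glutamine carrier of many tumours, SLC1A5 (ASCT2), stood at a level far above its family. Its NC libraries held 294, 265 and 257 CPM and the NONO_KD libraries 265, 284 and 278 CPM, so that the groups overlapped and no change was called (log2 fold change 0.02, SE 0.05, edgeR adjusted P = 0.798). Without NC library 1 it was called raised (log2 fold change 0.089, edgeR adjusted P = 0.0497). In the PKM2 experiment it went from 247, 266 and 261 CPM to 325, 334 and 324 CPM, above NC in every library. This rise of 26.9% had a log2 fold change of 0.34 (SE 0.05, edgeR adjusted P = 3.72e-05), and the value was 0.55 once corrected for GC content and transcript length. An antisense gene shares 23.4% of the exon bases of SLC1A5. The authors' handling of strand is not given in the sources used here.

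SLC3A2, the heavy chain that carries SLC7 light chains to the membrane, rose after PKM2 knockdown and not after NONO knockdown. SLC3A2 (ENSG00000168003) lies on chromosome 11 of GRCh38 from 62856102 to 62888875, on the plus strand. In the PKM2 experiment it was at 187, 222 and 185 CPM in NC and at 369, 351 and 380 CPM after knockdown. The lowest PKM2_KD library was thus well above the highest NC library, and the log2 fold change was 0.89 (SE 0.07, edgeR adjusted P = 3.36e-07). In the NONO experiment the values were 200, 199 and 190 CPM in NC and 186, 183 and 170 CPM after knockdown. Although these groups did not overlap, the log2 fold change of -0.13 (SE 0.05) did not pass the threshold (edgeR adjusted P = 0.0603). It did pass in limma on log2(TPM + 1) (-0.18, adjusted P = 0.0337) and with the first NC library left out. The 2 changes differed by 1.00 (SE 0.09, edgeR adjusted P = 6.95e-08). Its relative SLC3A1, which serves cystine reabsorption in the kidney, was not expressed at a testable level.

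The light chains did not follow SLC3A2 as a group. SLC7A5 (LAT1, the exchanger that brings in leucine and other large neutral amino acids) fell in both experiments. SLC7A5 (ENSG00000103257) lies on chromosome 16 of GRCh38 from 87830023 to 87869488, on the minus strand. It went from 313, 281 and 280 CPM to 213, 213 and 199 CPM after NONO knockdown and from 230, 245 and 232 CPM to 169, 159 and 140 CPM after PKM2 knockdown. Every knockdown library was below every NC library of its experiment. The log2 fold changes were -0.48 (SE 0.05, edgeR adjusted P = 4.94e-05) and -0.60 (SE 0.07, edgeR adjusted P = 6.43e-06), and they differed by -0.12 (SE 0.09, edgeR adjusted P = 0.265). Corrected for GC content and transcript length, the second value was -0.36. The pseudogene copies SLC7A5P1 and SLC7A5P2 held at most 1.30 CPM in any library.

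SLC7A11 (xCT, which exchanges glutamate for cystine) fell after NONO knockdown and rose after PKM2 knockdown. Its libraries of the NONO experiment held 247, 224 and 229 CPM in NC and 189, 190 and 181 CPM after knockdown, a log2 fold change of -0.32 (SE 0.05, edgeR adjusted P = 0.000420). In the PKM2 experiment it went from 223, 255 and 231 CPM to 464, 423 and 344 CPM. The PKM2_KD libraries were widely spread, but all lay above NC. The log2 fold change was 0.80 (SE 0.09, edgeR adjusted P = 1.24e-05), and it ranged from 0.71 to 0.92 as each library was left out. The difference between the knockdowns was 1.11 (SE 0.12, edgeR adjusted P = 4.97e-07). The overlapping antisense gene SLC7A11-AS1 shares 8.97% of its exon bases and was at most 5.89 CPM in any library.

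SLC7A6 (y+LAT2, which exchanges arginine for glutamine) fell from 69.0 ± 4.31 to 55.8 ± 1.11 CPM after NONO knockdown (log2 fold change -0.31, SE 0.06, edgeR adjusted P = 0.00166). After PKM2 knockdown it was at 69.5 ± 5.30 CPM against 62.9 ± 4.47 CPM in NC, which did not pass (log2 fold change 0.15, SE 0.07, edgeR adjusted P = 0.0881) but was called without NC library 2 or PKM2_KD library 3 (adjusted P = 0.0356 and 0.00659). The opposite-strand gene SLC7A6OS shares 44.4% of the exon bases of SLC7A6, and on the TPM scale its NONO call was lost (limma adjusted P = 0.261). SLC7A7 (y+LAT1) was below 1 CPM in every library and was called in neither experiment.

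The heavy chain was set beside its known SLC7 partners per length, by dividing the TPM of SLC3A2 by the summed TPM of SLC7A5, SLC7A6, SLC7A7, SLC7A8, SLC7A10 and SLC7A11. The ratio was 1.20, 1.29 and 1.16 in the NC libraries of the PKM2 experiment and 2.02, 1.98 and 2.55 after PKM2 knockdown. The partner sum itself was 142 ± 9.65 TPM in NC and 135 ± 21.2 TPM after knockdown, with overlapping groups. In the NONO experiment the ratio was 1.02, 1.15 and 1.07 in NC and 1.26, 1.37 and 1.29 after knockdown, and the partner sum went from 157 ± 8.49 to 114 ± 6.43 TPM. Groups of the ratio did not overlap in either experiment (exact permutation test, two-sided, P = 0.10 in both, the smallest that 3 against 3 libraries can give). Within the partners, SLC7A11 stood at 0.466 ± 0.0189 times the TPM of SLC7A5 in the NC libraries of the PKM2 experiment and at 1.19 ± 0.0906 times after knockdown. In the NONO experiment these ratios were 0.388 ± 0.00978 and 0.404 ± 0.00287. These are levels of mRNA and not of the protein pairs at the membrane.

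The cationic amino acid transporters, which bring in arginine and lysine without SLC3A2, gave another pattern. SLC7A1 (CAT1) was at 417, 379 and 390 CPM in NC and at 398, 398 and 396 CPM after NONO knockdown, with overlapping groups and a log2 fold change of 0.01 (SE 0.04, edgeR adjusted P = 0.906). In the PKM2 experiment it fell from 338, 364 and 340 CPM to 223, 214 and 179 CPM. All PKM2_KD libraries were below NC, with a log2 fold change of -0.76 (SE 0.07, edgeR adjusted P = 2.20e-06). SLC7A2 (CAT2) was the member that rose most after NONO knockdown. It went from 41.7, 32.3 and 35.4 CPM to 60.6, 56.2 and 61.3 CPM, with a log2 fold change of 0.71 (SE 0.08, edgeR adjusted P = 9.71e-05). After PKM2 knockdown it fell from 30.3, 26.5 and 31.2 CPM to 20.3, 22.8 and 18.7 CPM, with a log2 fold change of -0.51 (SE 0.09, edgeR adjusted P = 0.000317). Groups overlapped in neither experiment, and the changes differed by -1.23 (SE 0.13, edgeR adjusted P = 5.91e-07).

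The SLC36 family includes proton-coupled carriers such as SLC36A1, and its 2 expressed members went apart after PKM2 knockdown. SLC36A1 (PAT1, found at lysosomes) was at 28.6, 25.3 and 28.2 CPM in NC and at 73.9, 73.3 and 64.2 CPM after PKM2 knockdown. With 2.57 times the NC level, a log2 fold change of 1.36 (SE 0.07, edgeR adjusted P = 1.80e-08), it rose most of all 23 members. In the NONO experiment it was at 33.8, 30.9 and 28.98 CPM in NC and at 28.7, 30.2 and 29.04 CPM after knockdown. The groups overlapped there and no change was called (log2 fold change -0.09, SE 0.07, edgeR adjusted P = 0.386). SLC36A4 (PAT4) fell after PKM2 knockdown from 62.3, 60.2 and 63.5 CPM to 37.3, 38.1 and 37.9 CPM (log2 fold change -0.72, SE 0.05, edgeR adjusted P = 2.65e-07). It fell less after NONO knockdown, from 66.7, 63.9 and 62.9 CPM to 52.6, 51.8 and 50.4 CPM (log2 fold change -0.32, SE 0.05, edgeR adjusted P = 0.000610). The difference was -0.41 (SE 0.07, edgeR adjusted P = 0.000111). On the log2(TPM + 1) scale SLC36A4 changed by -0.02 after NONO knockdown and was not called.

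In the SLC38 family of sodium-coupled neutral amino acid transporters, 3 genes stand side by side on chromosome 12 of GRCh38 and did not move together. SLC38A1 lies from 46183063 to 46270017, SLC38A2 from 46358189 to 46372867 and SLC38A4 from 46764761 to 46832408, all on the minus strand. SLC38A2 (SNAT2, a transporter induced when amino acids are short) rose in both experiments. It went from 276, 326 and 314 CPM to 459, 439 and 411 CPM after NONO knockdown and from 299, 378 and 313 CPM to 625, 525 and 467 CPM after PKM2 knockdown. The PKM2_KD libraries were spread over a wide range, all of it above NC. The log2 fold changes were 0.51 (SE 0.06, edgeR adjusted P = 0.000118) and 0.71 (SE 0.10, edgeR adjusted P = 8.19e-05), which differed by 0.18 (SE 0.14, edgeR adjusted P = 0.287).

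Its neighbour SLC38A4 (SNAT4), a low-level member, fell in both. It went from 6.67, 7.49 and 7.38 CPM to 4.79, 5.49 and 5.70 CPM after NONO knockdown (log2 fold change -0.43, SE 0.13, edgeR adjusted P = 0.0262), a call lost with DESeq2 (adjusted P = 0.0960) and without any of 4 libraries. After PKM2 knockdown it fell from 7.71, 7.11 and 6.67 CPM to 3.19, 3.44 and 2.26 CPM (log2 fold change -1.28, SE 0.17, edgeR adjusted P = 3.17e-05). SLC38A1 (SNAT1, a glutamine carrier) was at 511 ± 22.5 CPM in NC and 494 ± 5.75 CPM after NONO knockdown, which did not pass (edgeR adjusted P = 0.406). It fell from 457 ± 2.92 to 349 ± 40.0 CPM after PKM2 knockdown (log2 fold change -0.39, SE 0.07, edgeR adjusted P = 0.000410).

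SLC38A7 and SLC38A9 belong to the lysosome, where the first exports glutamine and the second senses arginine for mTORC1. SLC38A7 rose in both experiments, from 52.8, 46.4 and 49.5 CPM to 57.6, 57.2 and 58.5 CPM after NONO knockdown and from 47.7, 47.8 and 46.1 CPM to 73.1, 78.6 and 72.6 CPM after PKM2 knockdown. Neither pair of groups overlapped. The log2 fold changes were 0.22 (SE 0.06, edgeR adjusted P = 0.0128) and 0.66 (SE 0.06, edgeR adjusted P = 6.29e-07). The NONO call was lost without NONO_KD library 3 (adjusted P = 0.0554) and in limma on all 3 TPM scales (adjusted P = 0.101 to 0.158). SLC38A9, SLC38A10 and SLC38A6 rose after PKM2 knockdown, by log2 fold changes of 0.34, 0.30 and 0.31 (edgeR adjusted P = 0.00173, 0.000230 and 0.0122), and were not called after NONO knockdown, where the values were 0.12, 0.08 and 0.27. Corrected for GC content and transcript length, the first 3 values were 0.17, 0.63 and 0.17. The call of SLC38A6 was lost without the third NC library (adjusted P = 0.0613). In limma on all 3 TPM scales the PKM2 calls of SLC38A6 (adjusted P = 0.1185 to 0.21) and SLC38A10 (0.0564 to 0.0861) were lost. Without NC library 1 of the NONO experiment SLC38A10 was called raised after NONO knockdown (log2 fold change 0.13, edgeR adjusted P = 0.0346).

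In the SLC43 family, SLC43A3 and SLC43A1 fell to 0.436 and 0.476 times their NC level in PKM2_KD cells. SLC43A3 carries purine nucleobases and is not known as an amino acid carrier, although it belongs to a family named for large neutral amino acid transporters. It lies beside SLC43A1 on chromosome 11 of GRCh38, SLC43A3 from 57406954 to 57427580 and SLC43A1 from 57484534 to 57515786, both on the minus strand. SLC43A3 was at 325, 315 and 317 CPM in NC and at 139, 142 and 137 CPM in PKM2_KD, where its log2 fold change of -1.20 (SE 0.04) had the lowest P value of all members (edgeR adjusted P = 1.06e-09). SLC43A1 (LAT3, a carrier of leucine and other branched-chain amino acids) went from 19.3, 18.9 and 21.8 CPM to 10.2, 9.93 and 8.40 CPM (log2 fold change -1.07, SE 0.10, edgeR adjusted P = 1.72e-06). In both genes every PKM2_KD library was far below NC.

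After NONO knockdown neither gene was called in the test of all libraries. SLC43A3 was at 369, 305 and 311 CPM in NC and at 292, 292 and 302 CPM in NONO_KD (log2 fold change -0.15, SE 0.06, edgeR adjusted P = 0.0911), NC library 1 standing above the rest. The value was -0.053 without that library and -0.20 without NC library 2, where it was called (adjusted P = 0.0456), as it was without the count filter (adjusted P = 0.0133). SLC43A1 was at 21.6, 22.9 and 22.4 CPM and at 21.7, 20.5 and 19.7 CPM (log2 fold change -0.11, SE 0.07, edgeR adjusted P = 0.279). A same-strand gene, AP000781.2, shares 29.9% of the exon bases of SLC43A3, so that the authors' counting could split reads between them. SLC43A2 (LAT4) went from 5.28 ± 0.637 to 3.75 ± 0.404 CPM after NONO knockdown (log2 fold change -0.49, SE 0.16, edgeR adjusted P = 0.0376), a call that DESeq2 did not make (adjusted P = 0.115) and that was lost without any of 5 libraries. It was not called after PKM2 knockdown.

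Other carriers, most but not all of them for amino acids, formed a list of 41 genes. They came from the SLC6, SLC15, SLC16, SLC17, SLC25, SLC32 and sideroflexin families, with CTNS and SLC66A1. After NONO knockdown 1 of 19 tested rose and 7 fell (42.1% called, beside 33.4% of all genes, median log2 fold change -0.11), and without NONO_KD library 2 the 8 calls became 4. Over all genes, 1658 of 15149 rose and 1896 fell without that library, against 2396 and 2558 of 14832 with all libraries. After PKM2 knockdown 6 of 21 rose and 9 fell (median -0.35), and the 71.4% called was near the 68.4% of all genes. The mitochondrial serine carrier SFXN1 fell from 144 ± 9.19 to 65.2 ± 2.42 CPM after NONO knockdown (log2 fold change -1.14, SE 0.06, edgeR adjusted P = 1.57e-07). SLC16A10, a carrier of aromatic amino acids, fell in both, by log2 fold changes of -0.74 and -2.49 (edgeR adjusted P = 0.0477 and 1.11e-05). The low-level peptide and histidine carrier SLC15A3 fell after NONO knockdown (log2 fold change -1.36, SE 0.36, edgeR adjusted P = 0.0124), and the mitochondrial aspartate and glutamate carrier SLC25A13 rose (0.29, SE 0.09, edgeR adjusted P = 0.0261). After PKM2 knockdown the taurine transporter SLC6A6 rose from 147 ± 1.28 to 335 ± 30.5 CPM (log2 fold change 1.18, SE 0.06, edgeR adjusted P = 1.60e-08). The mitochondrial glutamate carrier SLC25A22 and the mitochondrial glycine carrier SLC25A38 also rose, by 1.17 and 0.90 (edgeR adjusted P = 7.12e-08 and 1.36e-07). SFXN2 and the glycine transporter SLC6A9 fell by 2.26 and 1.87 on the log2 scale (edgeR adjusted P = 4.96e-08 and 1.15e-06).

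The genes that sense amino acids for the kinase mTORC1 at the lysosome, 35 in all, were each tested. After NONO knockdown 8 rose and 3 fell (31.4% called, beside 33.4% of all genes, median log2 fold change 0.01), and without NONO_KD library 2 the 11 calls became 7. Over all genes the calls dropped too, to 1658 raised and 1896 lowered of 15149. After PKM2 knockdown 16 rose and 11 fell (77.1% called, beside 68.4% of all genes, median 0.13). Largest after PKM2 knockdown were the rises of FNIP2, RRAGC and FLCN, which belong to the folliculin complex and the Rag GTPases it acts on. FNIP2 went from 9.92 ± 0.711 to 41.4 ± 4.56 CPM, a log2 fold change of 2.06 (SE 0.10, edgeR adjusted P = 5.22e-09). RRAGC went from 30.7 ± 1.39 to 80.6 ± 3.18 CPM and FLCN from 91.2 ± 3.56 to 233 ± 10.1 CPM, with log2 fold changes of 1.39 and 1.35 (edgeR adjusted P = 2.83e-09 and 1.44e-09). The arginine sensor CASTOR1, the sestrin SESN3 and MTOR itself fell by 1.07, 0.82 and 0.81 on the log2 scale (edgeR adjusted P = 0.000142, 5.62e-05 and 2.04e-06). After NONO knockdown the changes were smaller. LAMTOR4, LAMTOR1 and NPRL3 rose by 0.42, 0.38 and 0.37 on the log2 scale, and BMT2, SESN3 and RRAGD fell by 0.64, 0.46 and 0.40 (edgeR adjusted P between 0.000119 and 0.0479).

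The amino acid response, which cells start through ATF4 when amino acids are short, was described by 30 genes of which 28 were tested. After NONO knockdown 2 rose and 11 fell (46.4% called, median log2 fold change -0.17), where 16.2% of all genes rose and 17.2% fell. After PKM2 knockdown 15 rose and 6 fell (75% called, median 0.29), where 33.6% of all genes rose and 34.7% fell. After PKM2 knockdown the stress genes PPP1R15A, DDIT3 and ATF3 rose most. PPP1R15A went from 198 ± 58.9 to 1062 ± 44.2 CPM (log2 fold change 2.42, SE 0.15, edgeR adjusted P = 6.61e-08) and DDIT3 from 12.9 ± 4.90 to 53.1 ± 6.38 CPM (log2 fold change 2.05, SE 0.19, edgeR adjusted P = 1.60e-06). ATF3 rose by 1.76 (SE 0.26, edgeR adjusted P = 8.97e-05). CHAC1, which degrades glutathione, the receptor VLDLR and the aminotransferase GOT1 fell by 1.57, 1.21 and 1.11 on the log2 scale (edgeR adjusted P = 0.0229, 5.17e-06 and 2.98e-08). The PKM2_KD libraries of CHAC1 held 17.9, 3.09 and 2.70 CPM, the first of them within the NC range of 16.6 to 36.4 CPM. After NONO knockdown the transcription factor CEBPB fell from 129 ± 30.1 to 50.4 ± 15.4 CPM (log2 fold change -1.35, SE 0.20, edgeR adjusted P = 0.000426). GCLM, a subunit of the enzyme that starts glutathione synthesis, and the asparagine synthetase ASNS fell by 0.85 and 0.80 on the log2 scale (edgeR adjusted P = 0.000182 and 0.00600), and NUPR1 and the glutamine synthetase GLUL rose by 0.99 and 0.32 (edgeR adjusted P = 0.0374 and 0.000261). The lists and the transporters were measured in the same libraries, and no test compared a list with other genes.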

How the data were processed

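RNA was poly(A)-selected and sequenced with paired reads of 150 bases in 12 MDA-MB-231 libraries. The authors deposited a table per experiment with an estimated count and a TPM value for each gene in each library. Their own fold changes, p-values and group means in the same tables were not used. The submitters' processing notes name fastp, HISAT2, StringTie, RSEM and hg19, without versions or roles. Strand handling is not given in the sources used here. Groups came from the sample labels, and every column of a library's values was used.

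Estimated counts were rounded and tested with edgeR 4.0.16 (R 4.3.3, quasi-likelihood, TMM, filterByExpr, Benjamini-Hochberg over all genes tested), each knockdown against its own NC group and the difference as an interaction over 12 libraries. CPM values are TMM-normalized within an experiment. Standard errors were computed from the F statistic. The members and lists were chosen with earlier results of these data known. Values in every library are given for members with an adjusted P below 0.05 and a log2 fold change of at least 0.58 in size in either experiment, and for SLC3A2, SLC7A5, SLC7A11 and SLC1A5. From each related list, up to 3 genes per direction and experiment with the largest change are named. Locations and exon overlaps come from GENCODE 29 (GRCh38) by Ensembl identifier, an annotation that may differ from the authors' own. In simulated data, edgeR recovered 198, 199 and 198 of 200 genes changed 4-fold for the NONO, PKM2 and difference comparisons, over 14832, 15524 and 15995 genes. It made 10, 10 and 13 false calls there. Changes smaller than 4-fold, as most members had, were not simulated.

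Alternatives tried were DESeq2 1.42.0, its size factors in edgeR, testing all genes without the count filter, blocking on the replicate number, limma 3.58.1 on log2(TPM + 1) over genes with a mean TPM of 1 or more, a pseudocount of 0.1 and no filter in limma, correction for gene length, the study's cutoffs, and leaving out each library. A correction for GC content and transcript length, by the median of 20 bins of each, was added after seeing the data.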

Additional observations from a re-analysis of the deposited data

Results flagged for a closer look

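The change of 16 transporters differed between the knockdowns by the interaction test over the 12 libraries (edgeR adjusted P below 0.05), given here as the log2 fold change after PKM2 knockdown minus that after NONO knockdown. It was more positive after PKM2 knockdown for SLC36A1 (1.44), SLC7A11 (1.11), SLC3A2 (1.00), SLC7A6 (0.44), SLC38A7 (0.43), SLC1A3 (0.34), SLC1A5 (0.31) and SLC38A10 (0.21). It was more negative for SLC1A1 (-2.28), SLC7A2 (-1.23), SLC43A3 (-1.06), SLC43A1 (-0.97), SLC38A4 (-0.86), SLC7A1 (-0.78), SLC36A4 (-0.41) and SLC38A1 (-0.35). Of these, SLC1A3 and SLC38A10 had adjusted P = 0.0331 and 0.0236. Without the count filter both calls were lost (adjusted P = 0.0650 and 0.0907), and over the 12 fits with a library left out SLC1A3 was called in 7 and SLC38A10 in 10. The call of SLC1A3 was lost without NC library 1 or NONO_KD library 2 of the NONO experiment, and without NC library 3, PKM2_KD library 1 or PKM2_KD library 2 of the PKM2 experiment (adjusted P = 0.0606 to 0.0888). That of SLC38A10 was lost without NONO_KD library 2 or NC library 1 of the PKM2 experiment (adjusted P = 0.0731 and 0.0640). On log2(TPM + 1) the difference of SLC1A3 was -0.033 and was not called. In limma on all 3 TPM scales the differences of SLC7A6 (adjusted P = 0.175 to 0.356), SLC38A7 (0.079 to 0.156) and SLC38A10 (0.0706 to 0.105) were not called either. That of SLC38A4 was lost in limma on log2(TPM + 1) without filter (adjusted P = 0.0904). The 2 experiments had separate NC groups and different depths, so that the knockdown and the experiment cannot be told apart in a single group.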

How the results depend on the processing

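Size factors by relative log expression kept every member's direction and call in all 3 comparisons. DESeq2 called 5 members lowered after NONO knockdown in place of 8, and lost none after PKM2 knockdown. Over all genes it called 2068 of 27360 fitted genes lowered after NONO knockdown, against 2558 of 14832 in edgeR. With limma on log2(TPM + 1), log2(TPM + 0.1) and log2(TPM + 1) without filter, members raised after NONO knockdown numbered 2, 2 and 2, members lowered numbered 4, 4 and 3, and members higher in the difference numbered 4, 4 and 4. Over all genes, 911, 913 and 584 rose and 1734, 1744 and 1115 fell after NONO knockdown, of 13786, 13786 and 27378. In edgeR 2396 rose and 2558 fell of 14832. Higher in the difference were 2955, 2914 and 2672 of 14091, 14091 and 31578 genes, against 4110 of 15995 in edgeR. All 3 limma fits lost the NONO calls of SLC1A1, SLC1A3, SLC7A6, SLC36A4, SLC38A4, SLC38A7 and SLC43A2. Without filter, 6 members rose after PKM2 knockdown, without SLC1A3, SLC38A2, SLC38A6 and SLC38A10, and 3325 of all 29763 genes rose. The PKM2 calls of SLC38A6 and SLC38A10 were also lost on log2(TPM + 1) with the filter (limma adjusted P = 0.1212 and 0.0564). The same held on log2(TPM + 0.1) (limma adjusted P = 0.1185 and 0.0580). By the study's cutoffs the counts raised and lowered were 0 and 1 after NONO knockdown, 1 and 5 after PKM2 knockdown, and 2 and 3 in the difference. Of all 15995 genes tested for the difference, 1009 were higher and 1890 lower by these cutoffs. The cause was not tested.

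Leaving out 1 library each, members lowered after NONO knockdown numbered 5 to 8, the fewest without NC library 3 or NONO_KD library 2. Called genes after NONO knockdown numbered 4 to 9 for the list of other carriers and 7 to 13 for mTORC1 sensing, the fewest without NONO_KD library 2 in both. Over all genes, 1997 of 15081 fell without NC library 3, and 1658 of 15149 rose and 1896 fell without NONO_KD library 2. With all libraries, 2396 of 14832 rose and 2558 fell. Apart from the difference of SLC1A3, signs turned only where edgeR called nothing with all libraries. Of these, SLC1A5 and SLC38A10 were called raised after NONO knockdown without NC library 1 (edgeR adjusted P = 0.0497 and 0.0346). On the 3 TPM scales, in the order above, the log2 fold change after NONO knockdown was -0.050, -0.050 and -0.050 for SLC1A5, -0.042, -0.043 and -0.042 for SLC7A1 and -0.038, -0.039 and -0.038 for SLC38A10. The difference was -0.033, -0.036 and -0.033 for SLC1A3 and -0.024, -0.018 and -0.024 for SLC43A2. Over the libraries left out, SLC1A5 ranged from -0.013 to 0.089 and SLC7A1 from -0.015 to 0.057 after NONO knockdown, SLC43A2 from -0.12 to 0.052 after PKM2 knockdown, and the difference of SLC38A6 from -0.045 to 0.18.

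Replicate numbers are shared by the groups, but libraries with the same number did not deviate together (correlations -0.066 to 0.037), so they were not taken as pairs. With a replicate block, the NONO calls of SLC1A1 and SLC43A2 were lost (adjusted P = 0.0529 and 0.0536) and no other member call changed. Corrected for GC content and transcript length, 13 of 23 changes after PKM2 knockdown moved by more than the spread between replicates. So did 11 of 23 differences between the knockdowns and 1 of 23 changes after NONO knockdown. None of the called ones changed sign. Corrected for gene length alone, 4 of 23 changes after PKM2 knockdown moved by more than that spread. These were SLC1A3 (to 0.90), SLC38A7 (to 0.73), SLC38A10 (to 0.36) and SLC36A4 (to -0.63). So did 1 of 23 differences, that of SLC36A4 (to -0.35), and no change after NONO knockdown. Members under 1 CPM, such as SLC7A7, are limited by depth.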
